A study of Mus musculus with 6 samples.

Results

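The genes described here encode the nuclear subunits of the mitochondrial respiratory chain and ATP synthase. They were taken from the gene count table by symbol: protein-coding genes whose names begin with Nduf, Uqcr, Cox4 to Cox8 or Atp5, together with Sdha to Sdhd. This gave 83 structural subunits among 32377 genes in the table, with 38 in complex I, 4 in complex II, 8 in complex III, 16 in complex IV and 17 in complex V. The 12 assembly factors named Ndufaf or Sdhaf were set apart, and 13 name matches that are not protein-coding were left out. Symbols are those of GENCODE M21, so Atpif1 and Usmg5, complex V proteins under older symbols, fell outside the rule.

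The libraries were 3 of mouse TNFR2-deficient Treg and 3 of mouse TNFR2 positive Treg, and the design asks which transcripts differ between Treg cells without and with TNFR2. Treg cells are CD4 T cells that restrain other immune cells under the transcription factor Foxp3, and TNFR2, encoded by Tnfrsf1b, is a tumour necrosis factor receptor abundant on them. The labels give no strain, allele, age, tissue, sort or treatment, and do not say whether the deficiency was genetic or whether each library is a different animal, so the p-values speak to the scatter among the libraries at hand, part or all of which may be technical. mRNA was captured with oligo-dT, fragmented and amplified, and the table holds raw counts of 19296082 to 24038118 per library.

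The labelled cell type was checked against its markers before the subunits. Tnfrsf1b stood at 8.30, 7.99 and 7.32 CPM (TMM-scaled CPM, counts relative to the library total) in TNFR2-deficient libraries 1 to 3 and at 84.6, 84.2 and 80.2 CPM in TNFR2-positive libraries 1 to 3. Foxp3 had 1.34, 1.53 and 1.46 CPM in TNFR2-deficient libraries, against 76.9, 76.6 and 73.0 CPM in TNFR2-positive libraries, so the defining transcript of the labelled cell type was low in the first group. Of 10 Treg markers 9 were lower in the TNFR2-deficient libraries, with summed levels of 222 to 250.7 CPM there and 775 to 804 CPM in the TNFR2-positive libraries. Most of the TNFR2-deficient sum was Capg, the marker that was not lower. It had 184, 206 and 185 CPM in TNFR2-deficient libraries and 155, 180 and 179 CPM in TNFR2-positive ones. The median fold over the 10 markers, TNFR2-deficient over TNFR2-positive, was 0.0722. All 10 markers of CD4 CD8 double-positive thymocytes (immature T cells of the thymus) were higher, at sums of 3556 to 3648 CPM in TNFR2-deficient and 390 to 402 CPM in TNFR2-positive libraries. Most of the TNFR2-positive sum was Cd8a, Cd8b1 and Cd4, with means of 150, 106 and 91.0 CPM in those libraries. Rag1 averaged 918 CPM in TNFR2-deficient and 3.31 CPM in TNFR2-positive libraries, and the median fold over the 10 thymocyte markers was 88.7. All 8 erythroid markers were higher, at sums of 18076 to 20622 CPM in TNFR2-deficient and 4238 to 7012 CPM in TNFR2-positive libraries, and 7 of 10 myeloid markers were higher, at 991 to 1077 CPM in TNFR2-deficient and 490 to 546 CPM in TNFR2-positive libraries. Among 8 B cell markers 4 were higher (50%) and 2 lower, at 7457 to 7801 CPM in TNFR2-deficient and 6225 to 6371 CPM in TNFR2-positive libraries. The 4 platelet markers tested were higher, at 14.0 to 16.6 CPM in TNFR2-deficient and 4.67 to 5.52 CPM in TNFR2-positive libraries for all 5. By the same test, described below, 35.1% of all 17022 tested genes were higher and 34.2% lower. The marker lists, with the B cell list mixed, differed between the same groups as the genes described below, and their part in those differences was not tested. A change in the mix of cells and a change of RNA per cell cannot be told apart in bulk RNA.

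The respiratory chain passes electrons taken from NADH by complex I and from succinate by complex II through complex III to oxygen at complex IV, and complexes I, III and IV pump protons across the inner mitochondrial membrane. ATP synthase, complex V, uses the returning protons to make ATP. Complex II is made from nuclear genes alone, whereas the other complexes each combine nuclear subunits with a few encoded by mitochondrial DNA. Treg cells are known to rely on this pathway, and T cells change their use of it as they divide.

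Promoters of nuclear respiratory genes are known for sites of NRF1, of the ETS factor GABP and of YY1, so these windows were searched for each motif. Promoter sequences of RefSeq (build GRCm38.p6, 250 bases before to 50 after each annotated start) were at hand for 66 of the 83 subunit genes, as 71 windows. They are shown for Ndufs4, Uqcr10, Cox6b2, Atp5h and Cox6a1, subunits among those with the strongest differences in complexes I, III, IV and V. All lie on the minus strand, at chr13:114388045-114388344 (Ndufs4), chr11:4704295-4704594 (Uqcr10), chr7:4753045-4753344 (Cox6b2), chr11:115419870-115420169 (Atp5h) and chr5:115348909-115349208 (Cox6a1). Each is written 5′ to 3′ along the gene, and capitals mark matches on either strand to GCGCANGCG (NRF1), CCGGAAG (ETS) or AAGATGGCG (YY1).
Ndufs4: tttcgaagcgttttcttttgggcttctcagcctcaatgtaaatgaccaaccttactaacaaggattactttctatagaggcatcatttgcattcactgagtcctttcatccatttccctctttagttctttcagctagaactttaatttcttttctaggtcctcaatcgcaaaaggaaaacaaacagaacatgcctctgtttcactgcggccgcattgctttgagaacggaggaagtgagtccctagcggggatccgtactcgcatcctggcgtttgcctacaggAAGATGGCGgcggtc
Uqcr10: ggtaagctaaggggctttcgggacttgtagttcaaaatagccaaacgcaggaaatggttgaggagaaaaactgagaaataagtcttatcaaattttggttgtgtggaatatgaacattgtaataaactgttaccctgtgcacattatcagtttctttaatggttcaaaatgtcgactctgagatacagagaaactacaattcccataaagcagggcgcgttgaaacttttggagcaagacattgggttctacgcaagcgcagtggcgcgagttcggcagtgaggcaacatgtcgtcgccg
Cox6b2: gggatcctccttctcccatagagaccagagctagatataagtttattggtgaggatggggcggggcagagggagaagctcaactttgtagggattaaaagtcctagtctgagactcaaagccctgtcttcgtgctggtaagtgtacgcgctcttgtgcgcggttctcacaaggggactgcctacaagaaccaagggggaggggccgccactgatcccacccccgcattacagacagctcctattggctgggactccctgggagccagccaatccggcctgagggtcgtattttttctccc
Atp5h: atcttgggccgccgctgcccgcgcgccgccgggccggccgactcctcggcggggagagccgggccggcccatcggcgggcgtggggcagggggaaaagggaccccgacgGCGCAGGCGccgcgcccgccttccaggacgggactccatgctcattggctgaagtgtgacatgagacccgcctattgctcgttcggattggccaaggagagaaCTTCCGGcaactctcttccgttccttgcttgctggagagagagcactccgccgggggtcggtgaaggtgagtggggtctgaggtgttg
Cox6a1: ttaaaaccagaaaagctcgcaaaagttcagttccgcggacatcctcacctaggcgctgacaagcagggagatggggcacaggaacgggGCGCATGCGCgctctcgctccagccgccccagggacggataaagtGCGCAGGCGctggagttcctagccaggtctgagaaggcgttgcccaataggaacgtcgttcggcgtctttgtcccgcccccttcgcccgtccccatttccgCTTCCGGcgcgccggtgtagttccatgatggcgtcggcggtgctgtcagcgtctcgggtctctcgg

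Ndufs4 holds the YY1 letters just after its start, Atp5h holds the NRF1 and ETS letters, Cox6a1 holds 3 NRF1 matches, of which 2 overlap in a single run, and an ETS match, and neither Uqcr10 nor Cox6b2 holds any. The NRF1 motif was in 29.6% of the 71 subunit windows, against 12.3% of 13570 windows of all tested genes and 6.25% of all 32851 windows. The YY1 motif was in 9.86% of subunit windows, against 2.82% for tested genes and 1.40% of all windows. The ETS motif was in 22.5% of subunit windows, against 16.9% for tested genes and 8.86% of all windows, and at least 1 of the 3 motifs was in 50.7%, 28.2% and 14.8%. A match describes letters only, and a window without one says nothing of the factor.

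Subunits of all 5 complexes were higher in the TNFR2-deficient libraries. Of the 80 subunits with enough counts to be tested, 72 (90.0%) were higher and 1 was lower at a Benjamini-Hochberg adjusted p below 0.05 in edgeR's quasi-likelihood test, where 35.1% of all 17022 tested genes were higher and 34.2% lower. The median log2 fold change (log2FC, TNFR2-deficient over TNFR2-positive) was 0.57, or 1.48-fold, against 0.04 over all tested genes, and single subunits ran from -0.26 to 2.59. The change was mostly moderate: 35 of the 80 were both past the threshold and at least 1.5-fold higher (17.2% of all tested genes were), and 3 were at least 2-fold higher, Ndufs4, Ndufs5 and Cox6b2. All 3 TNFR2-deficient libraries lay above all 3 TNFR2-positive ones for 75 of the 80, against 38.2% of all tested genes. These shares over all tested genes also stand beside the counts for single complexes and lists below. The 7 subunits past the threshold in neither direction were Ndufa10, Ndufb2, Sdha, Uqcrc2, Cox6a2, Cox7a1 and Atp5s.

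**Figure D1:**
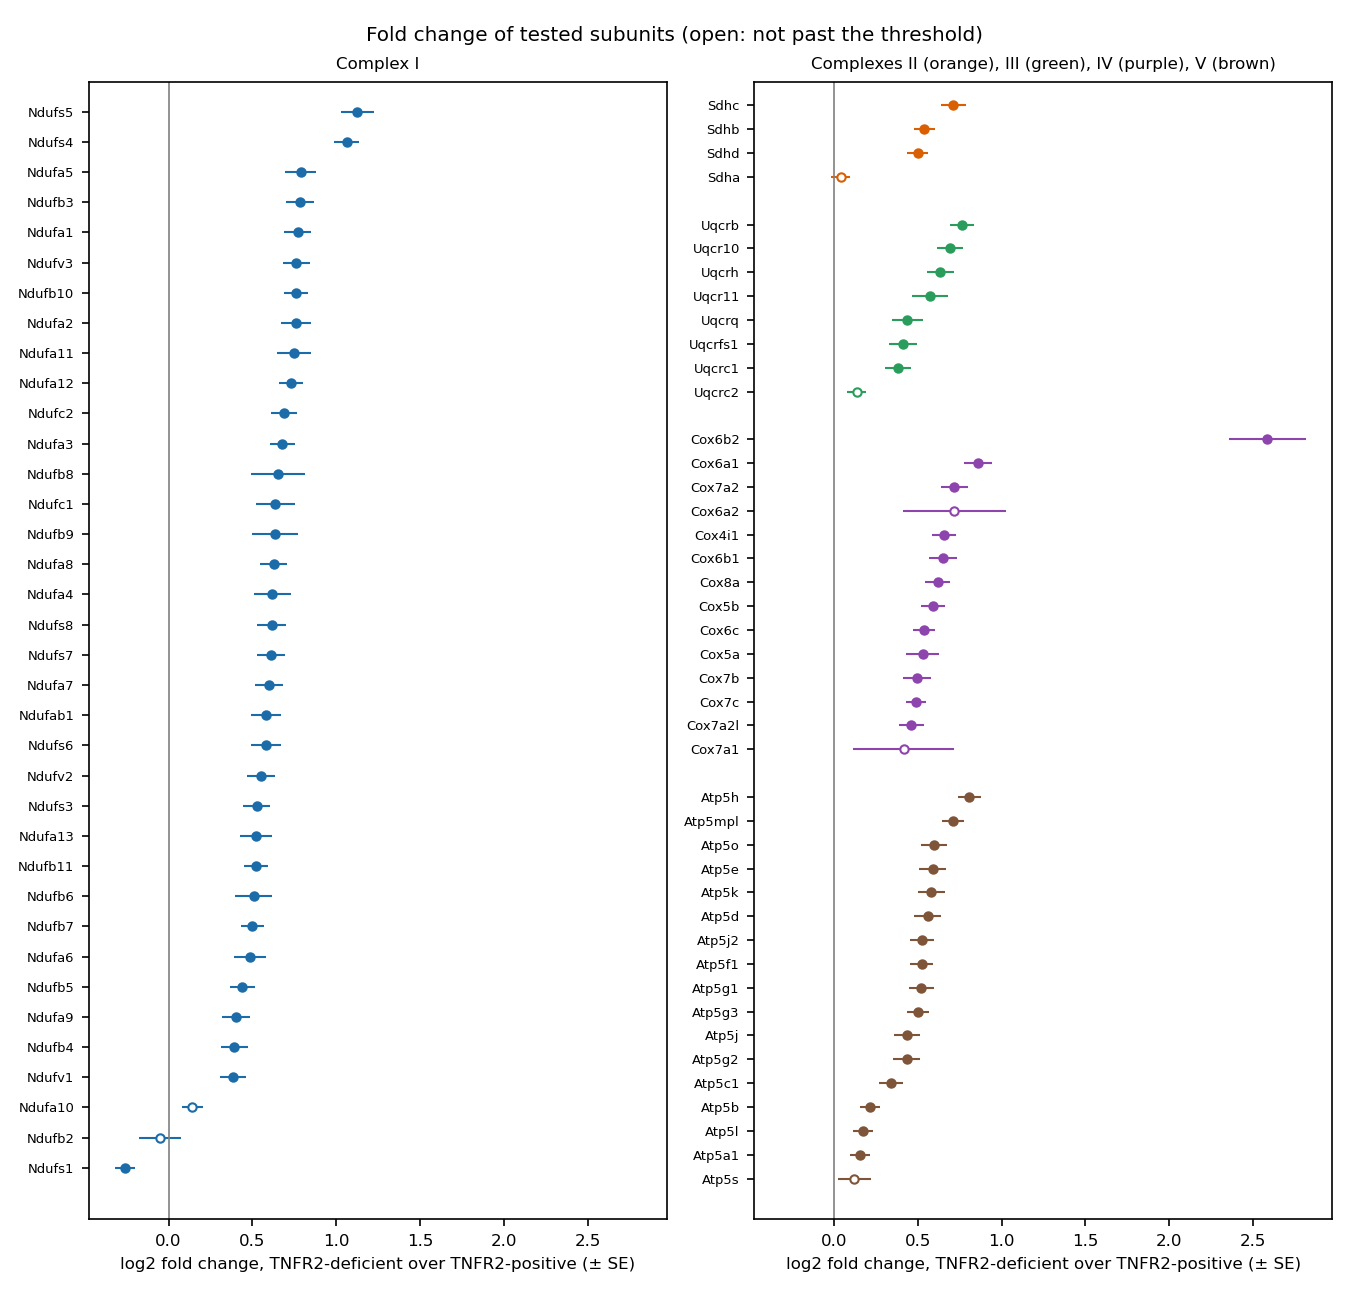
Log2 fold change, TNFR2-deficient over TNFR2-positive, with its standard error for 79 of the tested subunits, ordered within each complex; open points are the 7 subunits not past the threshold. Nearly all points lie to the right of 0, Cox6b2 stands apart at 2.59, and Ndufs1 is the single filled point to the left, at -0.26.

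Summed over subunits, the level was 6191, 6531 and 6150 CPM in TNFR2-deficient libraries 1 to 3, against 4273, 4707 and 4843 CPM in TNFR2-positive libraries 1 to 3. The groups did not overlap, and their means, 6291 ± 209 and 4608 ± 298 CPM (SD, n = 3 each), differed 1.37-fold. Most subunits also shared an order of libraries within a group. TNFR2-deficient library 2 was the highest of its group for 68 of the 80 tested subunits, and TNFR2-positive library 1 was the lowest of its group for 72. This order was not counted over all tested genes, so it cannot be called particular to subunits. TNFR2-positive library 1 also stood apart over all genes, with a chi-square per gene of 15.5 and 20.8 against its group's other two libraries and 2.56 between those. It had the lowest erythroid sum as well, 4238 CPM against 6609 and 7012 CPM. Without this library 73 subunits were higher and 1 lower, and the direction was the same.

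**Figure D2:**
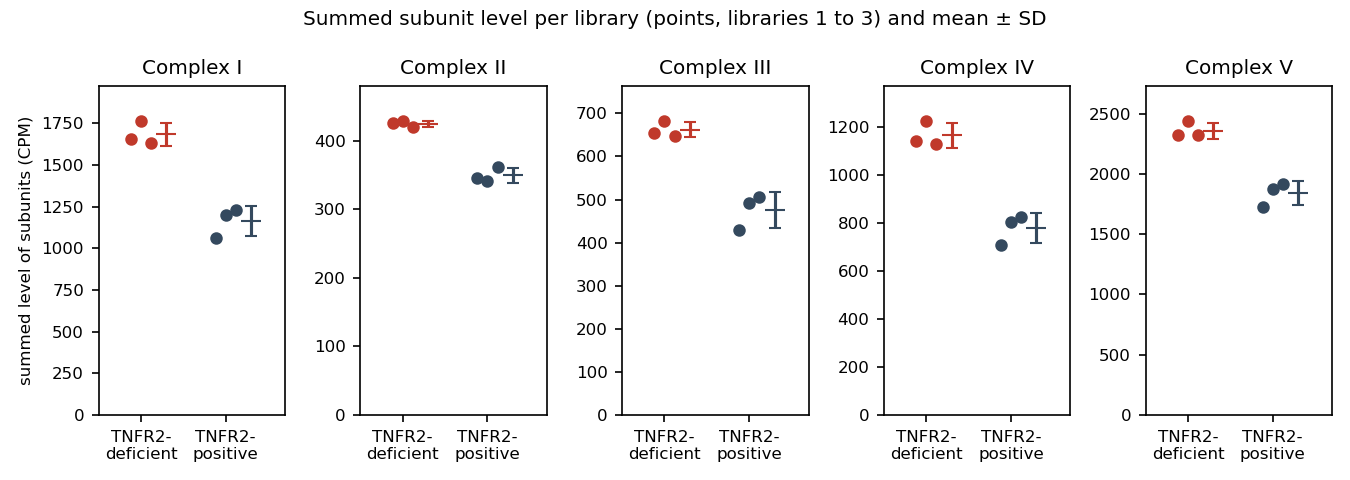
Summed TMM-scaled CPM of the subunits of complexes I to V in each library (points, libraries 1 to 3 from left to right within a group) with the mean and SD beside them; each panel has its own axis starting at 0. In every panel the 3 TNFR2-deficient libraries lie above the 3 TNFR2-positive ones, and the ratio of the group means is smallest for complex II, at 1.21.

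Complex I, the NADH dehydrogenase at the entry of the chain, had 34 of 37 tested subunits higher and 1 lower (median log2FC 0.61). Its summed level was 1652, 1761 and 1633 CPM in TNFR2-deficient libraries, against 1061, 1197 and 1230 CPM in TNFR2-positive libraries. Accessory subunits, which surround the catalytic core, had 28 of 30 higher and 0 lower by the edgeR test, with a median of 0.63. By no overlap between groups, 29 of those 30 were higher.

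Ndufs4 (ENSMUSG00000021764, chromosome 13), an accessory subunit needed to hold the NADH-oxidising module in place and mutated in Leigh syndrome in humans, had 60.5, 60.5 and 59.5 CPM in TNFR2-deficient libraries, against 25.8, 30.3 and 30.4 CPM in TNFR2-positive libraries. The values within each group were close together and the groups were far apart, a 2.09-fold difference (log2FC = 1.06, SE 0.0733, edgeR adjusted p = 2.21e-07). Ndufs5 (ENSMUSG00000028648, chromosome 4), an accessory subunit on the intermembrane-space side, had 29.1, 30.1 and 24.5 CPM in TNFR2-deficient libraries, against 11.7, 13.0 and 13.7 CPM in TNFR2-positive libraries, with every TNFR2-deficient library above every TNFR2-positive one (log2FC = 1.125, SE 0.0981, adjusted p = 1.43e-06). Ndufb10 (chromosome 17), an accessory subunit of the membrane arm, had 72.05, 73.8 and 71.6 CPM in TNFR2-deficient libraries, against 38.5, 43.4 and 46.4 CPM in TNFR2-positive libraries (log2FC = 0.76, SE 0.0725, adjusted p = 2.83e-06).

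The 7 nuclear-encoded core subunits, which carry the flavin, the iron-sulfur clusters and the quinone site, had 6 higher and 1 lower. Ndufs7, which carries an iron-sulfur cluster beside the quinone site, averaged 33.6 ± 1.45 CPM in TNFR2-deficient libraries, against 22.0 ± 2.34 CPM in TNFR2-positive libraries (log2FC = 0.61, SE 0.0835, adjusted p = 4.57e-05). Ndufs3 and Ndufs8, of the arm that leads to the quinone site, averaged 68.5 ± 4.34 and 58.7 ± 2.71 CPM in TNFR2-deficient libraries, against 47.6 ± 4.87 and 38.3 ± 4.98 CPM in TNFR2-positive libraries (log2FC 0.53 and 0.62). Ndufv1, which binds NADH and the flavin, rose least of the 6, at 63.2 ± 3.91 CPM in TNFR2-deficient libraries, against 48.4 ± 4.12 CPM in TNFR2-positive libraries (log2FC = 0.38, SE 0.0761, adjusted p = 0.000754). Its partner Ndufv2 had 77.2 ± 4.24 CPM in TNFR2-deficient libraries, against 52.8 ± 6.06 CPM in TNFR2-positive libraries (log2FC = 0.55, SE 0.0836, adjusted p = 0.000108).

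Ndufs1 (ENSMUSG00000025968, chromosome 1), the largest core subunit and a carrier of iron-sulfur clusters, was the exception. It had 67.5, 65.4 and 67.8 CPM in TNFR2-deficient libraries, against 82.9, 81.0 and 76.3 CPM in TNFR2-positive libraries, again with no overlap between groups (log2FC = -0.26, SE 0.0590, adjusted p = 0.00198). Ndufs1 also has the longest annotated exons of the subunits, 8086 bases, and its call did not hold once the relation of fold change to exonic length was removed (log2FC = 0.08, adjusted p = 0.206; 0.000364 to 0.206 over the alternatives). Its exons share 489 bases with Ino80dos on the other strand. Ndufa10 (log2FC = 0.14, adjusted p = 0.0645) and Ndufb2 (log2FC = -0.05, adjusted p = 0.73) did not pass the test.

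Ndufa4, a complex I gene by name whose protein is now placed in complex IV, had 56.3, 59.2 and 54.4 CPM in TNFR2-deficient libraries, against 29.1, 39.3 and 42.3 CPM in TNFR2-positive libraries (log2FC = 0.62, SE 0.111, adjusted p = 0.000377). Its relative Ndufa4l2, known for induction by hypoxia, had 0, 0 and 1 counts in the TNFR2-deficient libraries and 2, 0 and 0 counts in the TNFR2-positive ones, below a floor of 3 counts, or 0.125 to 0.155 CPM per library (counting error only).

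Complex II, succinate dehydrogenase, links the chain to the tricarboxylic acid cycle, and 3 of its 4 subunits were higher while its flavoprotein was not called. Sdha, the flavoprotein that oxidises succinate, had 216, 218 and 212 CPM in TNFR2-deficient libraries, against 214, 198 and 215 CPM in TNFR2-positive libraries, so the groups overlapped (log2FC = 0.04, SE 0.0580, adjusted p = 0.561). Sdhb, the iron-sulfur subunit, had 83.0, 83.9 and 78.3 CPM in TNFR2-deficient libraries, against 53.9, 54.9 and 59.97 CPM in TNFR2-positive libraries (log2FC = 0.54, SE 0.0642, adjusted p = 1.61e-05). Sdhc (ENSMUSG00000058076, chromosome 1), a membrane anchor, had 64.6, 68.7 and 67.2 CPM in TNFR2-deficient libraries, against 36.5, 44.2 and 41.9 CPM in TNFR2-positive libraries (log2FC = 0.71, SE 0.0749, adjusted p = 6.05e-06). Sdhd, the other membrane anchor, had 61.9, 58.3 and 62.4 CPM in TNFR2-deficient libraries, against 40.8, 43.2 and 45.2 CPM in TNFR2-positive libraries (log2FC = 0.50, SE 0.0641, adjusted p = 2.87e-05). For these 3 subunits the groups did not overlap. Whether Sdha differed from its partners in response was not tested.

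Complex III, which moves electrons from ubiquinol to cytochrome c, had 7 of 8 subunits higher and 0 lower (median log2FC 0.51), and all 8 were without overlap. Uqcrb (chromosome 13), a small subunit beside a quinone site, had 56.4, 64.8 and 57.1 CPM in TNFR2-deficient libraries, against 33.4, 34.6 and 36.9 CPM in TNFR2-positive libraries (log2FC = 0.76, SE 0.0733, adjusted p = 2.99e-06). Uqcr10 (chromosome 11), a further small subunit, had 35.9, 40.3 and 38.0 CPM in TNFR2-deficient libraries, against 21.4, 25.02 and 24.3 CPM in TNFR2-positive libraries (log2FC = 0.69, SE 0.0779, adjusted p = 1.02e-05). Uqcrh (chromosome 4), the hinge protein at cytochrome c1, had 209, 216 and 208 CPM in TNFR2-deficient libraries, against 117, 144 and 146 CPM in TNFR2-positive libraries (log2FC = 0.64, SE 0.0815, adjusted p = 2.86e-05). Uqcrh was also the most abundant subunit per length, at 386 CPM per kb of its principal transcript in the TNFR2-deficient libraries and 248 in the TNFR2-positive ones. The Rieske protein Uqcrfs1 and the core protein Uqcrc1 were higher too (log2FC 0.41 and 0.38), although Uqcrfs1 lost its call with exonic and intronic length removed (log2FC 0.08), and the second core protein Uqcrc2 did not pass (log2FC = 0.14, adjusted p = 0.0523).

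Complex IV, cytochrome c oxidase, had 12 of 14 tested subunits higher and 0 lower (median log2FC 0.60). Several of its subunits exist as a ubiquitous form and a tissue-restricted form, and per length the ubiquitous forms were the abundant ones, with 267 CPM per kb of principal transcript for Cox4i1 in the TNFR2-deficient libraries and 169 in the TNFR2-positive ones, while Cox4i2 had 0.194 in the TNFR2-deficient libraries and 0.274 in the TNFR2-positive ones. Cox6a1 (chromosome 5), the ubiquitous form of subunit VIa, had 57.1, 65.7 and 57.3 CPM in TNFR2-deficient libraries, against 29.7, 33.3 and 36.2 CPM in TNFR2-positive libraries (log2FC = 0.86, SE 0.0846, adjusted p = 3.57e-06). Cox4i1 (chromosome 8), the ubiquitous form of subunit IV, had 199.2, 214 and 199.2 CPM in TNFR2-deficient libraries, against 117, 133 and 138 CPM in TNFR2-positive libraries (log2FC = 0.66, SE 0.0714, adjusted p = 7.92e-06). Cox6b1, Cox7a2, Cox8a and Cox7b were higher as well, by log2FC of 0.65, 0.72, 0.62 and 0.49, and so was Cox7a2l, which joins complexes III and IV in supercomplexes, by 0.46. Of these, Cox7b lost its call with exonic and intronic length removed (log2FC 0.14).

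Cox6b2 (ENSMUSG00000051811, chromosome 7), the form of subunit VIb known from testis, differed most of all subunits. It had 4.80, 6.32 and 5.57 CPM in the TNFR2-deficient libraries, from 111, 140 and 134 counts, against 0.60, 1.02 and 1.17 CPM in the TNFR2-positive ones, from 14, 20 and 25 counts. The difference was 6.002-fold (log2FC = 2.59, SE 0.23, adjusted p = 1.64e-06), and it changed little after removal of the length relation (log2FC 2.48). Per length its level was 9.51 CPM per kb in the TNFR2-deficient libraries and 1.59 in the TNFR2-positive ones, far under that of Cox6b1, the ubiquitous form, which had 182 CPM per kb in TNFR2-deficient libraries and 116 in TNFR2-positive ones.

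The other restricted forms stayed low in every library. Cox6a2, the heart and muscle form of subunit VIa, had 2.03, 2.08 and 1.497 CPM in TNFR2-deficient libraries, against 0.86, 1.74 and 0.84 CPM in TNFR2-positive libraries, with overlapping groups (log2FC = 0.72, SE 0.307, adjusted p = 0.0546; 0.00728 to 0.174 over the alternatives), and its exons share 70 bases with Itgad on the other strand. Cox7a1, the heart and muscle form of subunit VIIa, had 0.95, 1.31 and 1.62 CPM in TNFR2-deficient libraries, against 0.73, 1.13 and 1.08 CPM in TNFR2-positive libraries (log2FC = 0.42, SE 0.301, adjusted p = 0.236). Cox4i2, the lung form of subunit IV, had 2, 2 and 6 counts in TNFR2-deficient libraries and 6, 4 and 3 in TNFR2-positive ones, and Cox8b, the muscle form of subunit VIII, had 0 counts in each TNFR2-deficient library and 1, 0 and 2 in the TNFR2-positive ones, so neither was tested.

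**Figure D3:**
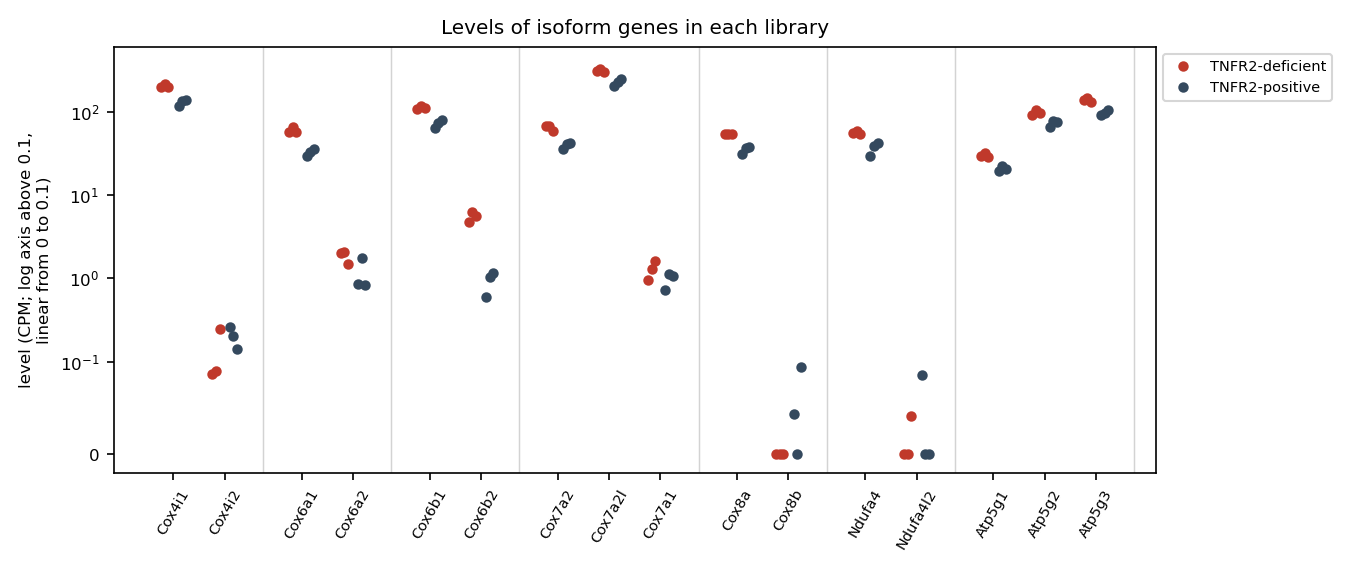
TMM-scaled CPM in each library (log axis above 0.1 CPM, linear from 0 to 0.1) of subunits with several gene forms, TNFR2-deficient to the left of TNFR2-positive for each gene. Ubiquitous forms lie between 19.6 and 326 CPM, restricted forms at 6.32 CPM or less, and Cox6b2 is the restricted form with the wide gap between groups.

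Complex V, ATP synthase, had 16 of 17 subunits higher and 0 lower (median log2FC 0.52), and all 17 were without overlap. Atp5h (ENSMUSG00000034566, chromosome 11), subunit d of the peripheral stalk that holds the catalytic head still, had 150.5, 169 and 156 CPM in TNFR2-deficient libraries, against 89.5, 97.5 and 84.5 CPM in TNFR2-positive libraries (log2FC = 0.81, SE 0.0705, adjusted p = 1.42e-06). Atp5mpl (chromosome 12), a small proteolipid of the membrane part, had 57.6, 64.2 and 57.4 CPM in TNFR2-deficient libraries, against 35.6, 36.3 and 37.5 CPM in TNFR2-positive libraries (log2FC = 0.71, SE 0.0666, adjusted p = 2.44e-06). Atp5f1 (chromosome 3), subunit b of the peripheral stalk, had 210.3, 216 and 199.6 CPM in TNFR2-deficient libraries, against 137, 143 and 156 CPM in TNFR2-positive libraries (log2FC = 0.52, SE 0.0660, adjusted p = 2.55e-05). Every TNFR2-deficient library lay above every TNFR2-positive one for these genes.

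The catalytic F1 head was higher in all 5 of its subunits, with a median log2FC of 0.34, while the other 12 subunits had a median of 0.52 and 11 higher, a difference that was not tested. Within the head, Atp5d and Atp5e, the delta and epsilon subunits of its central stalk, had log2FC of 0.56 and 0.59 and Atp5c1, the gamma subunit, 0.34. Atp5a1 and Atp5b, the alpha and beta subunits that form the catalytic ring, had 490 to 498 and 521 to 559 CPM in the TNFR2-deficient libraries, against 419 to 463 and 443 to 479 CPM in the TNFR2-positive ones (log2FC 0.16 and 0.22, adjusted p = 0.0305 and 0.0062). With exonic length removed, Atp5a1 lost its call (log2FC = 0.08, adjusted p = 0.195), and 4 of the 5 head subunits were higher. In a fit that removed exonic and intronic length, Atp5a1 was again not called and changed sign (log2FC = -0.03). Atp5b kept its call in that fit (log2FC = 0.15) and lost it with principal transcript length removed (log2FC = 0.10). Over the alternatives adjusted p ran from 0.00994 to 0.559 for Atp5a1 and from 0.000445 to 0.0822 for Atp5b.

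The c ring, whose rotation drives the head, is built from identical mature proteins of Atp5g1, Atp5g2 and Atp5g3. Atp5g1 had 29.4, 31.6 and 28.8 CPM in TNFR2-deficient libraries, against 19.6, 22.0 and 20.8 CPM in TNFR2-positive libraries (log2FC = 0.52, adjusted p = 6.27e-05). Atp5g2 had 90.3, 106 and 97.8 CPM in TNFR2-deficient libraries, against 65.1, 77.5 and 75.0 CPM in TNFR2-positive libraries (log2FC = 0.43, adjusted p = 0.000461). Atp5g3 had 137, 145 and 132 CPM in TNFR2-deficient libraries, against 91.8, 96.7 and 104 CPM in TNFR2-positive libraries (log2FC = 0.50, adjusted p = 3.69e-05). All were thus higher, with no overlap between groups, and Atp5g3 had the highest level per length, 191 CPM per kb in the TNFR2-deficient libraries and 135 in the TNFR2-positive ones. With exonic and intronic length removed Atp5g2 lost its call (log2FC 0.12), while Atp5g1 and Atp5g3 kept theirs. Atp5s, coupling factor B, had 9.30, 9.34 and 8.98 CPM in TNFR2-deficient libraries, against 8.61, 8.29 and 8.47 CPM in TNFR2-positive libraries and did not pass (log2FC = 0.12, adjusted p = 0.286).

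Atpif1, the inhibitor that stops ATP synthase from running backwards, lay outside the symbol rule and was higher by more than any complex V subunit, with 16.8, 20.4 and 16.5 CPM in TNFR2-deficient libraries 1 to 3, against 6.81, 9.36 and 8.05 CPM in TNFR2-positive libraries 1 to 3 (log2FC = 1.15, SE 0.129, adjusted p = 9.64e-06). Atpif1 is also known as a gene of haem synthesis in erythroid cells, and the erythroid list moved the same way, in a part that was not tested. The cytochrome c gene Cycs and Cyc1, the cytochrome c1 of complex III, which the symbol rule also missed, were higher, Cyc1 at 72.4 ± 2.76 CPM in TNFR2-deficient libraries, against 45.7 ± 5.87 CPM in TNFR2-positive libraries (log2FC = 0.67, SE 0.0860, adjusted p = 3.03e-05).

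Subunits encoded by mitochondrial DNA were mostly higher as well, 84.6% of them against 35.1% of all tested genes. Of 13 such genes 11 were higher and 2 lower (median log2FC 0.37, under the 0.57 of the nuclear subunits, but 0.61 against their 0.30 with exonic and intronic length removed), with a summed level of 62066, 62883 and 59750 CPM in TNFR2-deficient libraries, against 45369, 49006 and 50220.4 CPM in TNFR2-positive libraries. The ratio of this sum to that of the nuclear subunits was 9.79 ± 0.209 in the TNFR2-deficient libraries and 10.5 ± 0.133 in the TNFR2-positive ones (SD, n = 3 each), with no overlap. mt-Cytb, the cytochrome b of complex III, had 6168, 6199 and 5914 CPM in TNFR2-deficient libraries, against 4112, 4407 and 4531 CPM in TNFR2-positive libraries (log2FC = 0.49, SE 0.0597, adjusted p = 2.05e-05). mt-Nd5, a proton-pumping subunit of complex I, had 1883, 1893 and 1823 CPM in TNFR2-deficient libraries, against 2718, 2588 and 2457 CPM in TNFR2-positive libraries (log2FC = -0.47, SE 0.0592, adjusted p = 2.42e-05). mt-Nd4l, a further complex I subunit, was the other lower gene (log2FC = -0.28, SE 0.0983, adjusted p = 0.0223). It lost its call with exonic length removed (log2FC = -0.21) and with exonic and intronic length removed (log2FC = -0.07), and 1 of the 2 was left as lower without TNFR2-deficient library 2.

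Mitochondrial values, single and summed, carry a limit of counting. The summed level leaves out the counts of nuclear copies. It and its ratio to the nuclear subunits thus rest on how shared reads were assigned, which is not given. Nuclear copies that share nearly all 31-base words of mt-Co2, mt-Co3, mt-Nd3, mt-Nd4l and mt-Atp6 had 98.9%, 99.9%, 99.1%, 100.1% and 135% of the counts of those genes over the 6 libraries, so the values of those genes and of their copies cannot be told apart. Partial copies lay beside mt-Nd4 and mt-Co1. Gm28439 shared 62.8% of the words of mt-Nd4 and had 47.2% of its counts. Gm13340 and Gm29216 shared 45.2% and 29.6% of the words of mt-Co1 and had 0.742% and 30.3% of its counts. mt-Cytb and mt-Nd5 had no copy of either kind among the genes of the table, but genes that share only a small part of the words were not kept in this search.

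**Figure D4:**
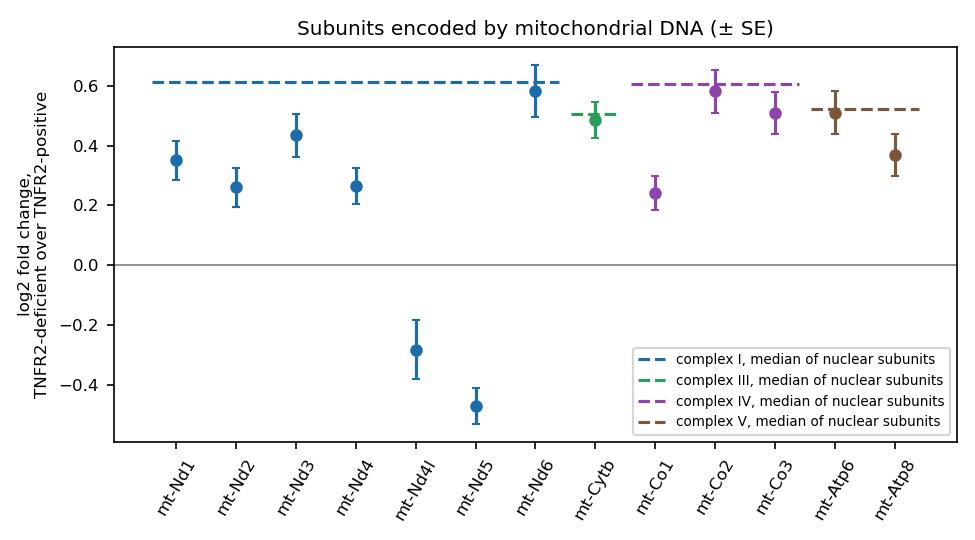
Log2 fold change, TNFR2-deficient over TNFR2-positive, with its standard error for the 13 subunits encoded by mitochondrial DNA; dashed lines are the medians of the nuclear subunits of the same complex (0.61, 0.51, 0.60 and 0.52 for complexes I, III, IV and V). Of the 13 points 11 lie above 0, mt-Nd4l and mt-Nd5 lie below it, and all 7 complex I points lie under the complex I line.

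Assembly factors, which build the complexes without being part of them, were higher in part. Of the 12 Ndufaf and Sdhaf genes 7 were higher and 0 lower by the edgeR test (median log2FC 0.33), and of all 55 factors listed for the 5 complexes 33 were higher and 4 lower (median 0.41). Ndufaf3 (chromosome 9), an early complex I factor, had 13.6, 14.7 and 15.3 CPM in TNFR2-deficient libraries, against 5.79, 7.78 and 7.58 CPM in TNFR2-positive libraries (log2FC = 1.05, SE 0.121, adjusted p = 1.27e-05). Pet100, a complex IV factor, had 26.1, 27.7 and 26.4 CPM in TNFR2-deficient libraries, against 10.97, 12.7 and 13.6 CPM in TNFR2-positive libraries (log2FC = 1.11, SE 0.0891, adjusted p = 7.51e-07). Dmac1 of complex I, Uqcc3 of complex III and Tmem242 of complex V had the smallest adjusted p among the higher factors of their lists (log2FC 0.81, 0.72 and 0.65), while Lyrm7 of complex III had the greater log2FC of its list, 0.94.

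The lower factors, without removal of length, were Acad9, Coa5, Sco1 and Taco1. Acad9, a complex I factor related to acyl-CoA dehydrogenases, had 20.8, 18.7 and 19.8 CPM in TNFR2-deficient libraries, against 33.3, 31.5 and 32.1 CPM in TNFR2-positive libraries (log2FC = -0.71, SE 0.0703, adjusted p = 3.91e-06). Coa5, a complex IV factor, had 68.4, 61.6 and 69.4 CPM in TNFR2-deficient libraries, against 107.7, 98.6 and 99.5 CPM in TNFR2-positive libraries (log2FC = -0.62, SE 0.0672, adjusted p = 8.11e-06). Both were lower in each TNFR2-deficient library than in any TNFR2-positive one.

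Of 13 enzymes of the tricarboxylic acid cycle 5 were higher and 2 lower (median log2FC 0.13), and the 38.5% higher is close to the share over all tested genes. Mdh2, malate dehydrogenase, averaged 151 ± 4.60 CPM in the TNFR2-deficient libraries and 115 ± 5.53 CPM in the TNFR2-positive ones (log2FC = 0.40, SE 0.0606, adjusted p = 0.000107), whereas Ogdh, of the oxoglutarate dehydrogenase complex, averaged 127 ± 1.43 CPM in TNFR2-deficient libraries, against 177 ± 9.94 CPM in TNFR2-positive libraries (log2FC = -0.49, SE 0.0605, adjusted p = 2.29e-05). Of 14 regulators of mitochondrial biogenesis and mitochondrial DNA 5 were higher (35.7%) and 6 lower (median -0.07), with the higher share again close to that of all tested genes, and with exonic length removed 7 were higher and 4 lower (median 0.03). Esrra, a nuclear receptor of respiratory genes, was higher (log2FC = 0.40, adjusted p = 0.000105) and Tfam, which packages mitochondrial DNA, was higher (log2FC = 0.32, adjusted p = 0.000635). Gabpa, the ETS factor whose motif was searched above, was lower (log2FC = -0.63, adjusted p = 2.46e-05), and shares 397 exonic bases with Atp5j on the opposite strand. Gabpb1, the other GABP gene of the list, was higher (log2FC = 0.19, adjusted p = 0.0155). The coactivator Ppargc1b was lower (log2FC = -0.88, adjusted p = 0.000516). Nrf1 had a log2FC of -0.03 (adjusted p = 0.679) and Yy1 of -0.11 (adjusted p = 0.111). These became 0.42 and 0.12, both past the threshold, once exonic length was removed. Polg, the mitochondrial DNA polymerase, was lower at 67.5 ± 1.80 CPM in TNFR2-deficient libraries, against 96.9 ± 1.53 CPM in TNFR2-positive libraries (log2FC = -0.52, adjusted p = 7.59e-06), a call lost once exonic length was removed (log2FC = -0.06), and with a change of sign once principal transcript length was removed (log2FC = 0.06).

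Subunit genes are short, and fold change was related to exonic length over the whole table. The median exonic length was 1631 bases for tested subunits and 3509 bases for all tested genes, and over genes Spearman's rho between log2FC and exonic length was -0.298 for all tested genes with a length (n = 16623) and -0.544 for the 80 subunits, genes of the same libraries that are not independent. Up to 1000 bases the median log2FC was 0.69 for 19 subunits and 0.31 for all tested genes. Between 1000 and 2000 bases it was 0.60 for 31 subunits and 0.35 for all, and between 2000 and 4000 bases 0.53 for 19 subunits and 0.23 for all. Above 4000 bases it was 0.38 for 11 subunits and -0.25 for all, with 8 of the 11 higher against 22.4% of all tested genes. In the shorter ranges, from the shortest up, 17 of 19, 31 of 31 and 16 of 19 subunits were higher. The shares of all tested genes higher there were 37.7%, 50.1% and 47.2%. The subunit median thus lay above that of all genes in each of the 4 length ranges.

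**Figure D5:**
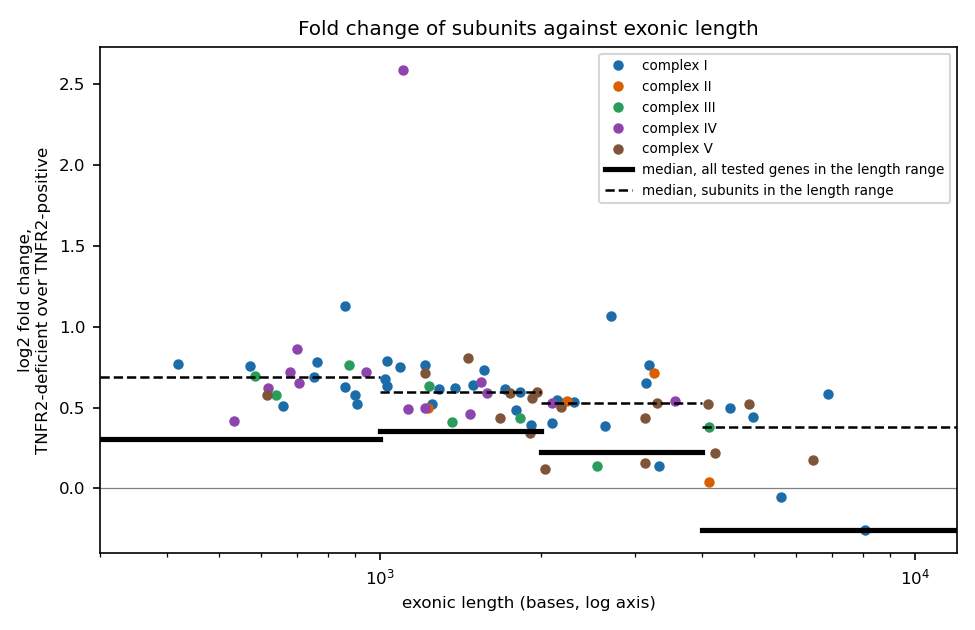
Log2 fold change, TNFR2-deficient over TNFR2-positive, against exonic length (log axis) for the 80 tested subunits, coloured by complex; solid lines are medians of all tested genes and dashed lines medians of the subunits in 4 length ranges. The dashed line lies above the solid one in each range, at 0.69 against 0.31 for the shortest genes and 0.38 against -0.25 for the longest.

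With each library's relation to exonic length removed, 71 subunits were higher and 0 lower, with a median log2FC of 0.49, where 39.1% of all tested genes were higher and 29% lower with a median of 0.11. The medians of complexes I to V were then 0.52, 0.41, 0.46, 0.52 and 0.44. With exonic and intronic length removed together, 64 subunits were higher and 0 lower with a median of 0.30, and Ndufa13, Ndufb4, Ndufb6, Uqcr11, Uqcrfs1, Cox7b, Atp5a1 and Atp5g2 were no longer called, where 38.3% of all tested genes were higher and 29.6% lower with a median of 0.10. The medians of complexes I to V were then 0.32, 0.24, 0.25, 0.30 and 0.31, which is 1.69 to 2.18 times smaller than without the removal. Ndufs4, Ndufs5 and Cox6b2 stayed the subunits with the greatest log2FC, at 1.002, 0.74 and 2.42.

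Reads of neighbours and copies can enter these counts. The strand setting of the counting is not given in the sources used here, and exons of 27 of the 83 subunits overlap another gene of the table on the opposite strand, among them Cox4i1, Atp5f1, Atp5j and Ndufs3, whose reads cannot be told apart from their partner's in the shared bases. Relative to the counts of their parents, the highest named copies were Ndufb4c at 23.0% of Ndufb4 and Atp5l2-ps at 10.4% of Atp5l, with the other 9 at up to 5.64%. Copies of nuclear subunits under other names were not looked for.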

How the data were processed

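Per the labels' protocols, mRNA was captured with oligo-dT from total RNA of 6 libraries, and no molecular identifiers are described. The submitters' processing notes name the aligner HISAT2 2.1.0 and build GRCm39. The counting program, its annotation, strand setting and treatment of multi-mapping reads are not given in the sources used for it. Raw, unnormalized counts per gene are what the authors deposited.

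From these counts, edgeR 4.0.16 (R 4.3.3) was run with its default expression filter, TMM scaling and the quasi-likelihood F test, with the group as design and Benjamini-Hochberg adjustment over 17022 genes (threshold 0.05, common biological coefficient of variation 7.62%). SE is the size of log2FC divided by the square root of F. Symbols, biotypes and lengths came from GENCODE M21, of an older build, so no coordinates of it are printed, and RefSeq promoter windows carry their own build. Where stated, each library's relation to length was removed by spline offsets (4 degrees of freedom). The fits were tested on simulated data. Alternatives were RLE, upper-quartile and library-size scaling, DESeq2 1.42.0, limma-voom (limma 3.58.1), other filters, a minimum fold of 1.5, removal of exonic length, a block for the replicate number, and leaving out each library. Removal of principal transcript length, and of exonic with intronic length, was added after the data were seen. Members and lists were chosen with earlier results of these data known. Named are the 3 higher and lower subunits of each complex with the smallest adjusted p, complex II, the complex I core, isoform genes, the ATPase inhibitor and the leading gene of each list in each direction; other genes given with values were chosen after these were seen. A gene that this rule names is not reported here.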

Additional observations from a re-analysis of the deposited data

How the results depend on the processing

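Counts of higher subunits were 64 to 75 over all settings but the 1.5-fold minimum, and 69 to 73 with a library left out. With a minimum fold of 1.5 the higher and lower counts were 35 and 0 for subunits, 15 and 2 for assembly factors and 0 and 0 for subunits of mitochondrial DNA. With exonic length removed the lower counts were 0 for subunits, 1 for mitochondrial DNA and 6 for assembly factors. With exonic and intronic length removed they were 0, 1 and 7. Without single libraries the lower count for mitochondrial DNA ranged from 1 to 2. Median log2FC of complexes I, II, IV and V was 0.46, 0.35, 0.45 and 0.35 with principal transcript length removed, and that of complexes I to V was 0.32, 0.24, 0.25, 0.30 and 0.31 with exonic and intronic length removed. With exonic length alone removed complex II had 0.41. Without single libraries complex I ranged from 0.49 to 0.66, lowest without TNFR2-positive library 1. Ndufs1 turned from lower to a log2FC of 0.079 with exonic length removed and 0.081 with exonic and intronic length removed, and Polg to 0.064 with principal transcript length removed. These shifts follow from the offsets, and whether length acts through the libraries or the cells was not tested.

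Deviations of same-numbered libraries from their group means had correlations of 0.03, 0.05 and -0.05, and those of differently numbered ones ran from -0.09 to 0.07. With 3 libraries in each group these values cannot show whether the samples were paired, which the labels do not say. With the replicate number as a block 73 subunits were higher and 1 lower, and with exonic length removed as well 72 were higher and 0 lower, complex II had a median of 0.41 and Ndufs1 a log2FC of 0.080. Depth limits the isoforms Cox4i2, Cox8b and Ndufa4l2, which had at most 6 counts in a library.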

Other observations

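Usmg5, a small membrane subunit of ATP synthase that the symbol rule missed, had 38.1, 44.8 and 38.4 CPM in the TNFR2-deficient libraries, against 23.3, 26.8 and 29.8 CPM in the TNFR2-positive ones (log2FC = 0.60, SE 0.0959, edgeR adjusted p = 0.00015). Ndufb1-ps, which the annotation used here lists as a non-coding RNA and which was therefore left out of the subunits, had 40.4, 40.1 and 37.2 CPM in TNFR2-deficient libraries, against 22.4, 22.8 and 27.3 CPM in TNFR2-positive libraries (log2FC = 0.70, SE 0.0837, adjusted p = 1.70e-05). The groups overlapped for neither gene.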
